A study of Mus musculus with 29 samples.

Results

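The genes of glycolysis, the pentose phosphate pathway and glucose transport were described in brown adipose tissue (BAT) and gastrocnemius muscle (SkM) of mice under calorie restriction (CR), treadmill exercise training (EX) or both (CREX). The group was defined by gene symbol and holds 33 of the 24770 symbols of the count table, all of which were found. It comprises 2 glucose transporters, 9 genes of the preparatory steps of glycolysis, 9 genes of the later steps down to lactate, 5 genes that set the level or breakdown of fructose bisphosphates, and 8 pentose phosphate genes. All mice were wild-type male C57BL/6J, and 1 RNA-seq library was made per mouse and tissue. Interventions began at 8 weeks of age and lasted 8 weeks, and tissues of every group were taken after a fast of 6 h. Control mice were sedentary with free access to food, CR mice were brought stepwise to 70% of free intake, EX mice ran on the treadmill and were sampled 24 h after the last bout, and CREX mice received both. BAT was available from 3 control, 4 CR, 4 EX and 4 CREX mice, and SkM from 4 control, 3 CR, 4 EX and 3 CREX mice.

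Glucose enters adipocytes and muscle fibres through GLUT1 (Slc2a1) and the insulin-responsive GLUT4 (Slc2a4), is phosphorylated by hexokinase and is either split to pyruvate and lactate by glycolysis or oxidized by the pentose phosphate pathway, which yields NADPH and ribose. In BAT, glucose feeds both heat production and the synthesis of fatty acids, for which NADPH is needed, whereas in the fast fibres of gastrocnemius glycolysis supplies ATP during contraction. Several steps have tissue-specific isoenzymes, with Pfkm, Pgam2 and Eno3 as the muscle forms of phosphofructokinase, phosphoglycerate mutase and enolase.

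A BAT library held 21047242 to 24919377 counts and an SkM library 23050918 to 23425284, so that 3 counts stand at 0.120 to 0.143 CPM (counts relative to the total of a library), a limit that covers counting error only. CPM values below were scaled with the library sizes of the TMM method. The labelled tissues were checked on marker genes. Ucp1, the uncoupling protein of brown adipocytes, was between 1373 and 4749.8 CPM in the BAT libraries and at most 0.138 CPM in SkM, while the 15 muscle fibre markers summed to between 120802 and 198359 CPM in SkM. BAT libraries differed in muscle RNA. Their level of the 15 muscle markers, as the median percentage of the SkM control level, ran from 0.00199% in control 3 to 3.42% in EX 2, 4.96% in EX 3 and 5.07% in CREX 3. In SkM, the 7 slow fibre markers summed to 98.0 CPM in CREX 2 and 35.3 CPM in CREX 3, against 374 to 2124 CPM in the other 12 libraries. The 5 hepatocyte markers summed to 35.4, 198 and 181 CPM in the SkM CR libraries and 43.1 CPM in CREX 1, and to at most 5.44 CPM in the other SkM libraries. The 6 adipocyte markers in SkM were highest in CR 1, CR 3, CREX 1 and EX 1 (255, 266, 297 and 289 CPM) and between 85.5 and 225 CPM elsewhere. None of 64 exact permutation tests of marker scores between groups passed after adjustment (smallest adjusted p = 0.183). With so few libraries per group the exact permutation p cannot fall below 0.0286 before adjustment. These tests could therefore hardly pass and do not show that the groups were alike in cell types. In such bulk samples, fewer cells of a type and less RNA per cell cannot be told apart.

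Both control tissues expressed most of the pathway, with different main isoforms of phosphofructokinase, phosphoglycerate mutase and enolase. Scaled to exon length, and normalized within each tissue, the highest levels in BAT control libraries were those of Gapdh (1906 CPM per kilobase), Aldoa (1452), Eno1 (757) and Tkt (727), and in SkM those of Aldoa (8637), Gapdh (8397), Eno3 (2303) and Pgam2 (2241). In 1 edgeR fit of the control libraries of both tissues, 13 members were called higher and 15 lower in BAT, where a call needs a Benjamini-Hochberg adjusted p under 0.05 together with a fold above 1.5, and 60.0% of all tested genes were called in that fit. The muscle isoforms Pgam2, Eno3 and Pfkm were 720-fold, 335-fold and 44.9-fold higher in SkM. The first pair of these folds rests on BAT control 1, which held more muscle RNA than the other BAT controls, and without it they were 3452 for Pgam2 and 596 for Eno3. The other forms of the same enzymes, Pgam1, Eno1, Pfkl and Pfkp, were 30.9-fold, 21.2-fold, 38.5-fold and 10.2-fold higher in BAT. Of the 8 pentose phosphate genes, 7 were called higher in BAT, and Rpia was lower without reaching the fold minimum (log2 difference -0.32, edgeR adjusted p = 0.0144). Transketolase (Tkt), which exchanges 2-carbon units between sugar phosphates, was 253-fold higher in BAT, and G6pdx and Pgd, the NADPH-producing dehydrogenases of the cytosol, were 45.3-fold and 19.3-fold higher. Ldhb, the lactate dehydrogenase subunit of oxidative tissues, and Pfkfb2 did not pass the test between tissues (edgeR adjusted p = 0.206 and 0.0731).

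**Figure D1:**
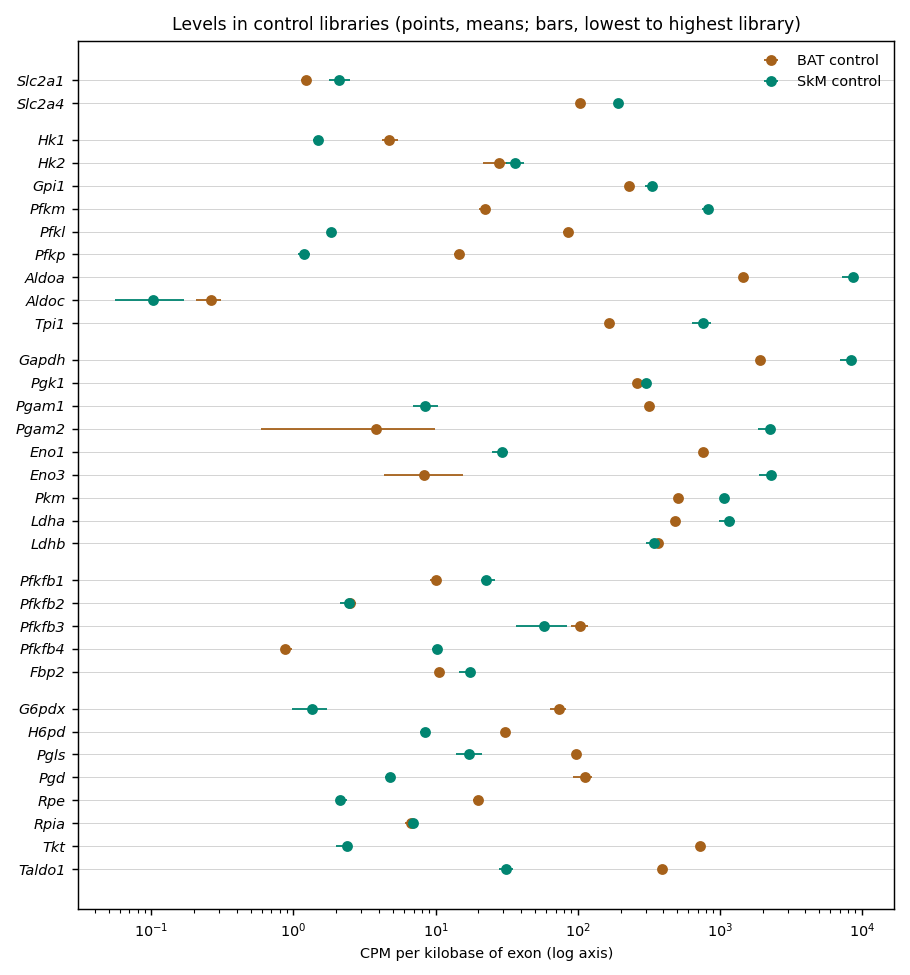
Mean level of each of the 33 members in 3 BAT and 4 SkM control libraries, as CPM per kilobase of exon on a log axis, with bars from the lowest to the highest library. Pgam2, Eno3 and Pfkm lie far to the right in SkM, and Tkt, G6pdx, Pfkl and Pgam1 lie far to the right in BAT.

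BAT lies beside skeletal muscle, and the muscle isoforms were set against the muscle RNA of each BAT library before the groups were compared. Phosphoglycerate mutase 2 (Pgam2) had 8.26, 0.805 and 0.495 CPM in control, 0.391, 0.615, 14.9 and 6.70 CPM in CR, 20.3, 56.3, 50.3 and 0.306 CPM in EX and 9.86, 15.03, 67.6 and 23.02 CPM in CREX libraries. These values followed the muscle share of the library. The groups overlapped, except that every CREX library lay above every control library. The muscle share separated the same groups, at 0.922% or more in CREX and 0.593% or less in control libraries, so share and group cannot be told apart there. Over the 15 BAT libraries, Pearson's r with the muscle share was 0.98 for Pgam2, 0.99 for Pfkm and 0.96 for Eno3 (Spearman's rho 0.97, 0.95 and 0.99), and after the 2 libraries farthest from the median share were left out r was 0.98, 0.97 and 0.98. The permutation p was 1e-05 for each r and each rho, the smallest that 100000 resamples can give (adjusted over 7 genes 2.33e-05). The libraries differ in group, and EX 2, EX 3 and CREX 3 hold the highest shares. The same check on Aldoa, Fbp2, Slc2a4 and Pfkfb1, which muscle also expresses, gave r of -0.09, -0.02, -0.29 and 0.31 (rho 0.10, 0.26, -0.16 and 0.34, permutation adjusted p from 0.368 to 0.940). At the estimated share, muscle RNA would carry 24.7% of the Aldoa level in EX 3, 17.6% of Gapdh and 9.37% of Slc2a4. For Fbp2 and Tkt it would carry 7.62% and 0.0148% there. EX 3 had the highest estimate of the BAT libraries for each of these genes. The estimate uses the median marker and is no upper bound, as single markers in EX 3 stood at 2.1% to 12.5% of the SkM control level. For Pfkm the estimated part of the level ran from 0.0795% in control 3 to 74.6% in EX 3, with a median of 26.2%. For Pgam2 the median was 138% and the maximum 179%, and for Eno3 they were 78.6% and 142%. Estimates above the whole measured level are too high for those libraries. Counts, medians and isoform shares below still include Pgam2, Eno3 and Pfkm, and none of them was called in any BAT comparison fitted without a replicate block.

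**Figure D2:**
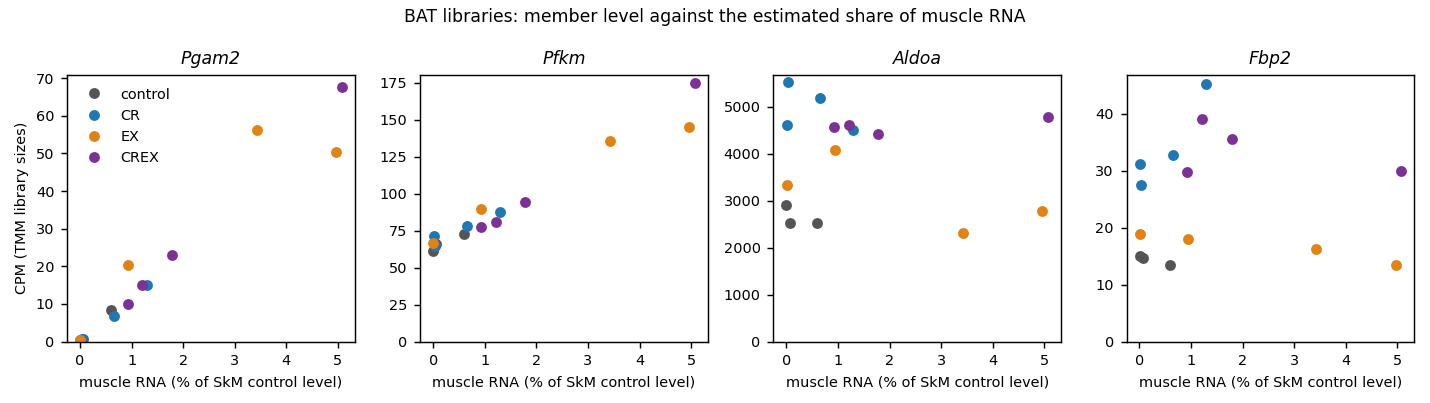
Level of Pgam2, Pfkm, Aldoa and Fbp2 (CPM, vertical axes from 0) against the estimated share of muscle RNA (percent of the SkM control level) in 15 BAT libraries, coloured by group. Pgam2 and Pfkm rise with the share, while the CR and CREX libraries lie above the control and EX libraries for Aldoa and Fbp2 at any share.

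In BAT, CR raised much of the pathway in sedentary mice. Of the 33 members, 9 were called higher (Gpi1, Aldoa, Aldoc, Gapdh, Fbp2, G6pdx, H6pd, Pgd and Tkt) and 1 lower (Pfkfb3), while 10.7% of all tested genes were called, 3.87% higher and 6.86% lower. Without the fold minimum, 18 members were higher and 1 was lower at an adjusted p under 0.05, against 9.99% and 10.9% of all genes. The median log2 fold change was 0.42 over the members and 0.0045 over all genes. In 21 members every CR library lay above every control library, an order that 16.6% of all genes showed. Together the 33 members took between 2.30% and 2.90% of all counts in the CR libraries and between 1.69% and 1.82% in the controls. Over the same libraries the brown adipocyte markers Ucp1 and Prdm16 fell (log2 fold change -1.02 and -1.35, edgeR adjusted p = 7.24e-04 and 0.00498), and the 7 brown adipocyte markers summed to between 3815 and 4606 CPM in CR and between 5797 and 6899 CPM in control libraries, with none at 0. Of the other marker lists, 1 of 6 adipocyte and 1 of 5 macrophage markers were called lower, and 3 of 5 endothelial markers were lower at an adjusted p under 0.05 alone, summing over the list to between 230 and 288 CPM in CR and between 320 and 360.0 CPM in control libraries. Their part in the results on sugar metabolism was not tested.

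Both transporters were higher under CR without reaching a fold of 1.5. Slc2a4 was at 284, 292 and 303 CPM in control and 413, 399.7, 469.6 and 445 CPM in CR libraries (1.47-fold, SE 0.072 on the log2 scale, edgeR adjusted p = 7.20e-04), and Slc2a1 rose 1.40-fold from a low level (3.97 ± 0.219 CPM, SD, n = 3; edgeR adjusted p = 0.0324). Neither hexokinase passed the test, with log2 fold changes of 0.0096 for Hk1 and -0.0098 for Hk2. The first isomerase and the aldolases stood higher. Gpi1, glucose-6-phosphate isomerase, had 621, 646 and 722 CPM in control and 1148, 1545, 1148 and 1207 CPM in CR libraries, with no overlap (log2 fold change 0.93, SE 0.12, edgeR adjusted p = 7.56e-04). Aldoa, the main aldolase here (chromosome 7, 126795234 to 126800751 in GRCm38), had 2523, 2523 and 2899 CPM in control and 4614, 5528, 4502 and 5199 CPM in CR libraries, a rise of 1.87-fold. Its paralog Aldoc rose 2.66-fold but lay near 1 to 3 CPM (2.08 ± 0.57 CPM in CR, SD, n = 4; edgeR adjusted p = 0.00574). Phosphofructokinase, the committed step between them, did not follow, and the log2 fold change was 0.15 for Pfkl and 0.078 for Pfkp, neither past the test.

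Among the later steps, Gapdh, often taken as a reference gene, was the member called. It had 2787, 2694 and 3067 CPM in control and 4119.9, 5780.0, 4549 and 4714 CPM in CR libraries (log2 fold change 0.75, SE 0.11, edgeR adjusted p = 0.00175). Eno1, Ldha and Pkm (enolase, the lactate dehydrogenase A subunit and pyruvate kinase) rose by smaller folds of 1.40, 1.39 and 1.29 that passed the adjusted p only (edgeR adjusted p = 0.00153, 0.00153 and 0.00337). Triosephosphate isomerase (Tpi1), of the preparatory steps, was of the same kind at 1.28-fold. Pgk1, Pgam1 and Ldhb did not pass, with log2 fold changes of 0.11, 0.048 and 0.17. Gapdh, Aldoa, Pgk1, Pgam1, Eno1, Ldha and Tpi1 have processed pseudogenes in the mouse genome, and how the counting shared reads between copies was not seen.

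In the pentose phosphate pathway 4 of 8 members were called higher and 2 others passed the adjusted p alone. Over all tested genes 3.87% were called higher and 9.99% were higher at an adjusted p under 0.05. G6pdx, which commits glucose-6-phosphate to the oxidative branch, had 169.8, 198 and 218 CPM in control and 296, 344, 309.5 and 340.3 CPM in CR libraries (log2 fold change 0.72, SE 0.10, edgeR adjusted p = 8.15e-04). H6pd, the counterpart in the endoplasmic reticulum, had 160.1, 147 and 142 CPM in control and 253, 267, 230.5 and 204 CPM in CR libraries (log2 fold change 0.67, SE 0.10, edgeR adjusted p = 0.00115). Pgd, the second NADPH-producing step, had 206, 261 and 282 CPM in control and 354, 515, 373 and 454 CPM in CR libraries (log2 fold change 0.77, SE 0.16, edgeR adjusted p = 0.0134). CR libraries lay above control libraries for all 3 dehydrogenases. Tkt (chromosome 14, 30548359 to 30574720 in GRCm38) showed 2273, 2235 and 2521 CPM in control and 3889, 4603, 3923 and 4273 CPM in CR libraries, a rise of 1.78-fold. The lactonase Pgls and transaldolase Taldo1 rose 1.29-fold and 1.31-fold (edgeR adjusted p = 0.0161 and 0.00713), whereas Rpe and Rpia, which interconvert the pentose phosphates, had log2 fold changes of -0.064 and -0.14 and did not pass. Pgd was not called in a fit over all 4 BAT groups (edgeR adjusted p = 0.127), and the other 9 called members kept their call in each of 14 alternatives.

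The 5 genes of fructose bisphosphate control moved in both directions. Pfkfb3, a strong kinase isoform for fructose-2,6-bisphosphate, the activator of phosphofructokinase (chromosome 2, 11471433 to 11554077 in GRCm38), had 496, 571 and 654 CPM in control and 325, 251, 387 and 313 CPM in CR libraries, all below the lowest control (log2 fold change -0.85, SE 0.14, edgeR adjusted p = 0.00544). Pfkfb1 rose 1.34-fold and passed the adjusted p alone (0.0172 in edgeR), and Pfkfb2 and Pfkfb4 did not pass (log2 fold change 0.20 and 0.42). Fbp2, the fructose-1,6-bisphosphatase of muscle, which runs the phosphofructokinase step backwards, had the largest fold of the members above 10 CPM. Its level was 13.4, 14.6 and 15.02 CPM in control and 31.1, 27.4, 45.3 and 32.8 CPM in CR libraries (log2 fold change 1.25, SE 0.16, edgeR adjusted p = 0.00134). The highest value was that of CR 3, whose hepatocyte markers summed to 61.9 CPM and whose muscle share was 1.29%, and without this library the log2 fold change was 1.08 and the call held.

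**Figure D3:**
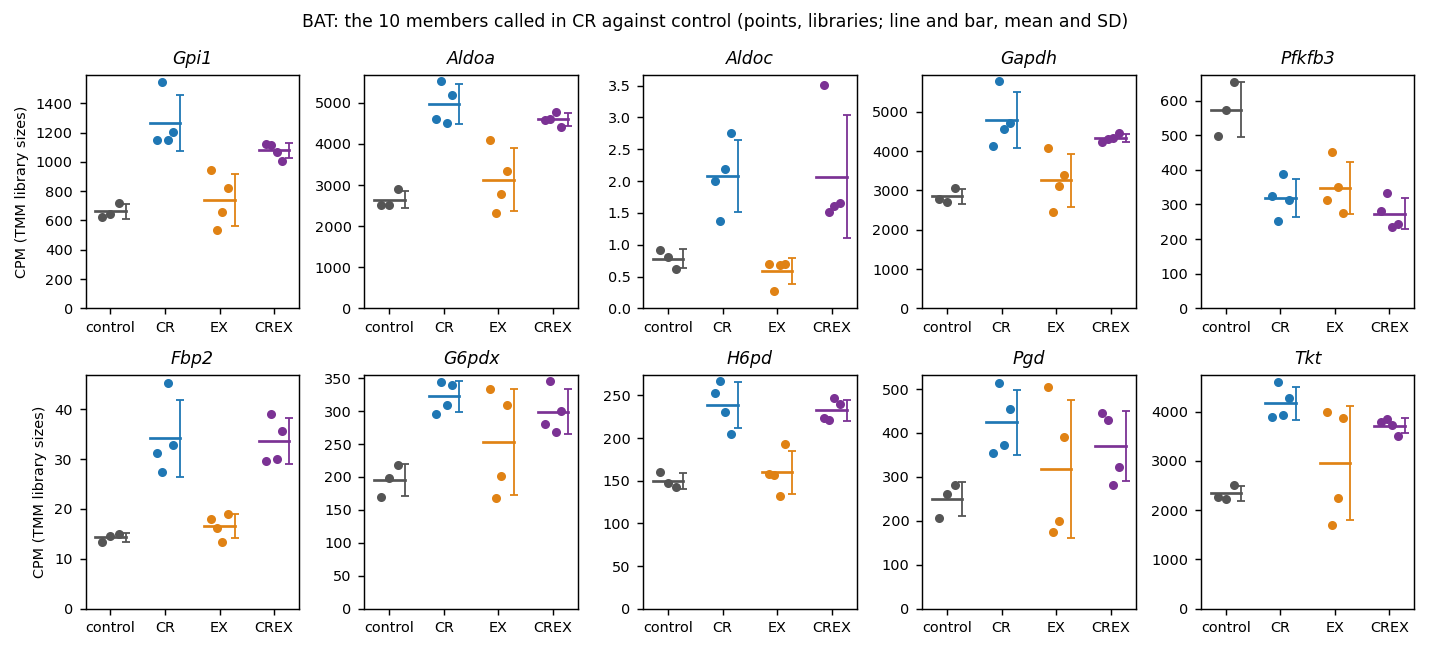
The 10 members called between CR and control in BAT, as CPM in each library of the 4 groups (axes from 0), with mean and SD (n = 3 control, 4 CR, 4 EX, 4 CREX). CR points lie above control points in 9 panels and below them for Pfkfb3, and EX points spread widely for Pgd and Tkt.

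Under training, the difference that CR made in BAT was called for fewer members. Between CREX and EX, 2 of 33 were called, both higher (Fbp2 and Aldoc), where 4.48% of all genes were called and 1.86% were called higher. At an adjusted p under 0.05 alone, 4 were higher (3.71% of all genes), the other two being H6pd and Ldha. The median log2 fold change of the members was 0.22, against -0.0020 over all genes, and 9 members did not overlap, all higher (8.86% of all genes). Fbp2 had 18.01, 16.3, 13.4 and 18.9 CPM in EX and 29.7, 39.1, 29.9 and 35.6 CPM in CREX libraries (log2 fold change 1.01, SE 0.12, edgeR adjusted p = 0.00223). Aldoc had 0.693, 0.274, 0.688 and 0.700 CPM in EX and 3.51, 1.51, 1.61 and 1.66 CPM in CREX libraries (log2 fold change 1.80, SE 0.37, edgeR adjusted p = 0.0197). Both were separated between the groups, although Aldoc rests on low counts and was lost without EX 2, EX 3 and CREX 3 (edgeR adjusted p = 0.109). In the same libraries the 7 brown adipocyte markers summed to between 2975 and 4287 CPM in CREX and between 5056 and 5951 CPM in EX, and their part was not tested. H6pd rose 1.45-fold (edgeR adjusted p = 0.0152) and Ldha 1.32-fold (0.0467). Just outside the adjusted p lay Aldoa and Gpi1, 1.46-fold and 1.45-fold higher in the mean (edgeR adjusted p = 0.0516 and 0.0585).

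The EX libraries of BAT were uneven in these genes. Tkt had 3991, 1697, 2254 and 3882 CPM in EX 1 to 4 and 3783, 3849, 3726 and 3507 CPM in the CREX libraries. Pgd had 504, 176, 199.9 and 390.2 CPM in EX and 446, 429.6, 281 and 323 CPM in CREX libraries. For both genes EX 1 and EX 4 were at the level of CREX and EX 2 and EX 3 were below it. EX 2 and EX 3 are the EX libraries with the most muscle RNA (3.42% and 4.96%, against 0.936% in EX 1 and 0.00639% in EX 4). The share was highest in CREX 3 (5.07%), where Tkt, at 3726 CPM, lay inside the range of the other CREX libraries. Pgd in CREX 3, at 281 CPM, was the lowest of CREX. A part of muscle RNA in these levels was not tested. With the muscle marker score as a covariate, 5 members were called, without EX 1 there were 4, and without the 3 libraries of highest muscle share there was 1 (Fbp2). Fbp2 kept its call in each of 16 alternatives.

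Across the 4 comparisons of a restricted with a free diet, Fbp2 was called in all 4, H6pd in 3, and Aldoc, Tkt and Pfkfb3 in 2. Of the 33 members, 20 were called in none, 8 in 1, 3 in 2, 1 in 3 and 1 in 4. Of the 14468 genes tested in at least 1 of these comparisons, 79.1% were called in none, 13.2% in 1, 6.07% in 2, 1.19% in 3 and 0.456% in 4. CR against control and CREX against EX share no libraries within a tissue. The sequences upstream of Fbp2 and H6pd are shown because these were the members called most often. They are the 250 bases before the RefSeq transcription start in GRCm38.p6, at chr13:62858401-62858650 for Fbp2 and chr4:150003237-150003486 for H6pd, both on the minus strand and written 5′ to 3′. GENCODE M21 starts Fbp2 within the last bases of its window, and starts H6pd once downstream of its window and once further upstream, so that the H6pd window is intronic for the longer transcript.
Fbp2: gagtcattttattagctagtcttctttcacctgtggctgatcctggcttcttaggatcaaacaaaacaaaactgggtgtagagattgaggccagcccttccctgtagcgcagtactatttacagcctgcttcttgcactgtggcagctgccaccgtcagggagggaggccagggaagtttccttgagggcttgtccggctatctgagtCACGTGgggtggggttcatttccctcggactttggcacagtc
H6pd: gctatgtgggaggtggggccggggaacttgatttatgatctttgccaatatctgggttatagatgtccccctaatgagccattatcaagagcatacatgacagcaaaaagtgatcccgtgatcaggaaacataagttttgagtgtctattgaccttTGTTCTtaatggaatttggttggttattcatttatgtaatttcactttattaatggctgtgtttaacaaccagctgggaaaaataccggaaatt
Capitals mark matches to 2 motifs searched on both strands and chosen after the values were seen, CACGTG (E-box) and AGAACA (half-site of steroid receptors, read as TGTTCT on the other strand). The E-box of Fbp2 begins 42 bases before the start, and the AGAACA match of H6pd 94 bases before it. Among all 32851 RefSeq promoter windows of this length, 6.02% held CACGTG and 16.08% held AGAACA. The table had promoters for 32 of the 33 members (Slc2a4 was missing), of which 5 held CACGTG and 10 held AGAACA in at least 1 window. Counted by window, as in the shares of all windows, 5 of 50 held CACGTG and 11 of 50 AGAACA. Of the 10 members called in BAT under CR, 2 held CACGTG and 4 held AGAACA in at least 1 window. Genes can have more than 1 window, so these counts of genes cannot be set against the shares of windows. A match is a run of letters and no site of binding was measured.

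In SkM of sedentary mice, Fbp2, H6pd, Eno1 and Tkt were called higher under CR and Ldhb and Pfkfb3 lower. Of these, only Fbp2 and H6pd kept their call in every alternative. Of 33 members, 4 were called higher and 2 lower, with 9.60% of all genes called, 4.27% higher and 5.32% lower. The median log2 fold change was 0.12 over the members and 0.0050 over all genes. The members took between 4.92% and 6.50% of all counts in CR and between 4.13% and 4.58% in control libraries. Fbp2 had 24.7, 24.5, 25.01 and 19.8 CPM in control and 51.1, 48.9 and 41.9 CPM in CR libraries (log2 fold change 1.01, SE 0.12, edgeR adjusted p = 7.32e-04). H6pd had 39.8, 43.1, 37.9 and 43.4 CPM in control and 74.2, 66.7 and 59.95 CPM in CR libraries (log2 fold change 0.71, SE 0.11, edgeR adjusted p = 0.00262). CR libraries were clear of the controls for both, and both kept their call in each of 15 alternatives. In the same comparison the 5 hepatocyte markers were called higher and 3 of 5 endothelial markers lower, and their part in these results was not tested.

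Ldhb (chromosome 6, 142490249 to 142507957 in GRCm38) had 519.7, 496, 393 and 394 CPM in control and 264, 279 and 304 CPM in CR libraries (log2 fold change -0.67, SE 0.14, edgeR adjusted p = 0.0108), all CR values being lower, and it lost its call in 2 of 15 alternatives, the fit of all 4 SkM groups and the adipocyte score as a covariate. The slow fibre markers, whose fibres are rich in this subunit, summed to 1704 to 2048 CPM in CR and 1096 to 2124 CPM in control libraries. Pfkfb3 had 204, 302, 463 and 301 CPM in control and 179.5, 129 and 79.5 CPM in CR libraries (log2 fold change -1.29, SE 0.31, edgeR adjusted p = 0.0234), and it lost its call in 8 of 15 alternatives. The paralog Pfkfb4, with more kinase than phosphatase activity, rose 1.42-fold and passed the adjusted p alone (0.00823 in edgeR), and Rpia, ribose-5-phosphate isomerase, was 1.39-fold lower (0.0161). Eno1, the widely expressed enolase, rose 1.51-fold (edgeR adjusted p = 0.0274) and lost its call in 6 of 15 alternatives. Tkt was called but its groups overlapped, with 8.05, 6.42, 8.10 and 7.98 CPM in control and 20.97, 8.06 and 34.6 CPM in CR libraries (log2 fold change 1.48, SE 0.38, edgeR adjusted p = 0.0342). The high values came from CR 1 and CR 3, the CR libraries with the most adipocyte marker RNA, and Tkt lost its call in 11 of 15 alternatives, and with that score as a covariate the log2 fold change was 0.27 (adjusted p = 0.629 in edgeR). Glycolysis genes of muscle were not called as a block. Aldoa and Gapdh were highest in CR 1 (26239 and 20019.8 CPM) and had log2 fold changes of 0.27 and 0.25, Pfkm had -0.23 and Pgam2 -0.25, and none of the 4 passed the test.

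Between CREX and EX in SkM, 3 of the 32 members tested were called, all higher (H6pd, Fbp2 and Pfkfb4), with 8.87% of all genes called and 3.70% higher. Aldoc was too low to be tested. H6pd had 42.04, 47.03, 43.4 and 49.2 CPM in EX and 83.2, 135 and 76.9 CPM in CREX libraries (log2 fold change 1.11, SE 0.18, edgeR adjusted p = 0.00888). Fbp2 had 27.01, 26.4, 31.05 and 33.2 CPM in EX and 38.8, 52.5 and 43.8 CPM in CREX libraries (log2 fold change 0.61, SE 0.13, edgeR adjusted p = 0.0171). Pfkfb4 had 34.2, 42.9, 38.5 and 41.8 CPM in EX and 46.2, 87.7 and 100.2 CPM in CREX libraries (log2 fold change 0.99, SE 0.23, edgeR adjusted p = 0.0302). All 3 were separated. Pfkfb4 and Fbp2 had their highest values in CREX 2 and CREX 3, the libraries nearly without slow fibre markers. Among the CREX libraries H6pd was highest in CREX 2 and lowest in CREX 3. In the same comparison 2 of 5 endothelial markers (Cdh5 and Emcn) were called lower. The endothelial list summed to between 104 and 212 CPM in CREX and between 233 and 292 CPM in EX libraries. Cox7a1 and Dio2, 2 of the 5 tested genes of the brown adipocyte list, were also called lower. Ucp1 of that list was nearly absent from SkM, so these 2 genes are not read as brown adipocytes there. The part of these genes in the member results was not tested. Pgam2 was 1.39-fold lower and passed the adjusted p alone (0.0438 in edgeR). Ldhb had 378, 367, 374 and 331 CPM in EX and 284, 41.1 and 48.7 CPM in CREX libraries and did not pass (log2 fold change -1.54, edgeR adjusted p = 0.202), its 2 lowest values again being CREX 2 and CREX 3. With the slow fibre score as a covariate no member was called, Fbp2 and Pfkfb4 lost their calls in 5 and 9 of 16 alternatives and H6pd in 1, and without CREX 2 and CREX 3 the log2 fold change was 0.87 for H6pd, 0.40 for Fbp2 and 0.23 for Pfkfb4, and H6pd and Rpia (lower) were the 2 members called. That last fit leaves 1 CREX library, which is assumed to vary like the EX libraries.

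**Figure D4:**
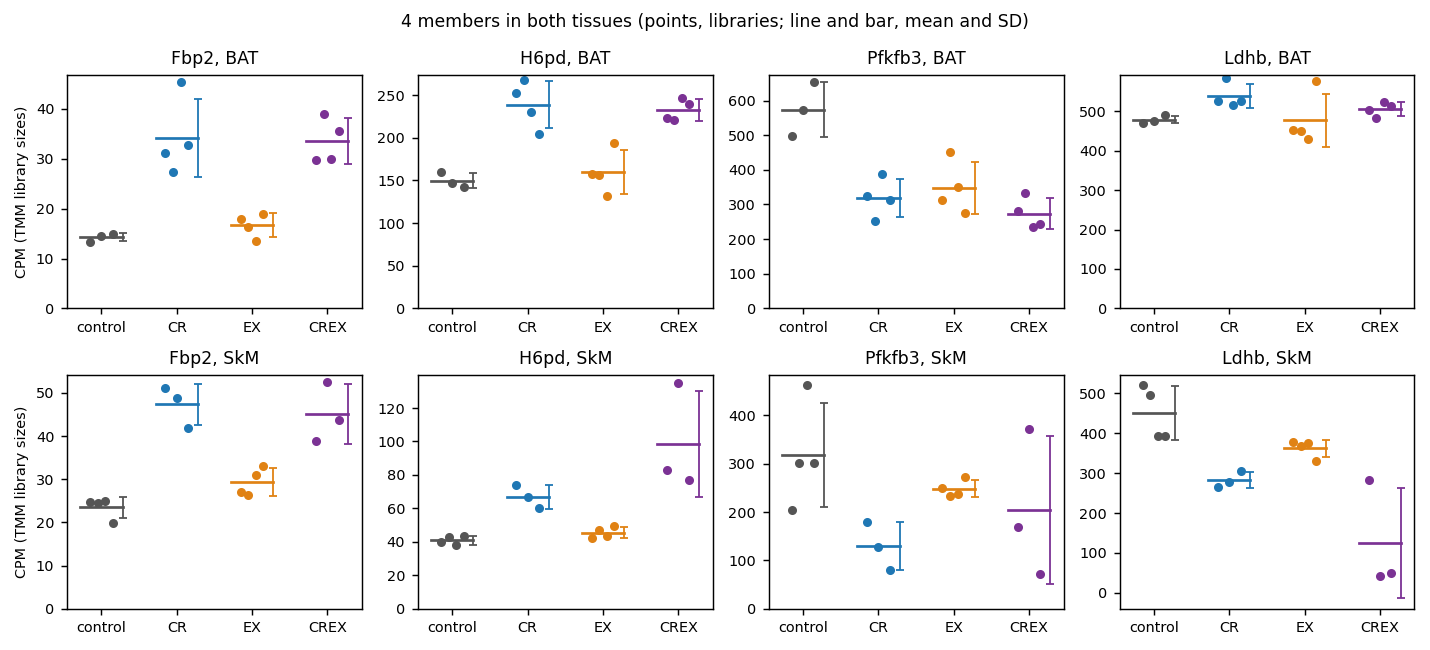
Fbp2, H6pd, Pfkfb3 and Ldhb in BAT (upper row) and SkM (lower row), as CPM in each library of the 4 groups with mean and SD (n = 3 or 4). For Fbp2 and H6pd the CR and CREX points lie above the control and EX points in both tissues, and SkM Ldhb is lowest in 2 CREX libraries (41.1 and 48.7 CPM).

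The effect of CR was compared between the tissues in 1 fit over control and CR libraries of both, and in 1 over EX and CREX libraries. In sedentary mice the difference passed at an adjusted p under 0.05 for 3 members, all more positive in BAT (3.93% of all genes), and in trained mice for 1 (3.03%). Ldhb had the largest, with a log2 fold change of 0.17 in BAT and -0.67 in SkM (difference 0.85, SE 0.16, edgeR adjusted p = 0.00588), and this difference held in each of 18 alternatives. For Slc2a4 the values were 0.56 in BAT and -0.0047 in SkM (difference 0.57, SE 0.15, edgeR adjusted p = 0.0250), and for Pgd they were 0.77 and 0.071 (difference 0.70, SE 0.20, edgeR adjusted p = 0.0400). In trained mice Pfkfb2 had 0.16 in BAT and -0.47 in SkM (difference 0.63, SE 0.17, edgeR adjusted p = 0.0474). The last 3 lost the adjusted p in 6 of 18, 10 of 18 and 15 of 19 alternatives. Aldoa, called in BAT under CR only, was not shown to differ between the tissues (difference 0.64, SE 0.25, edgeR adjusted p = 0.127).

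**Figure D5:**
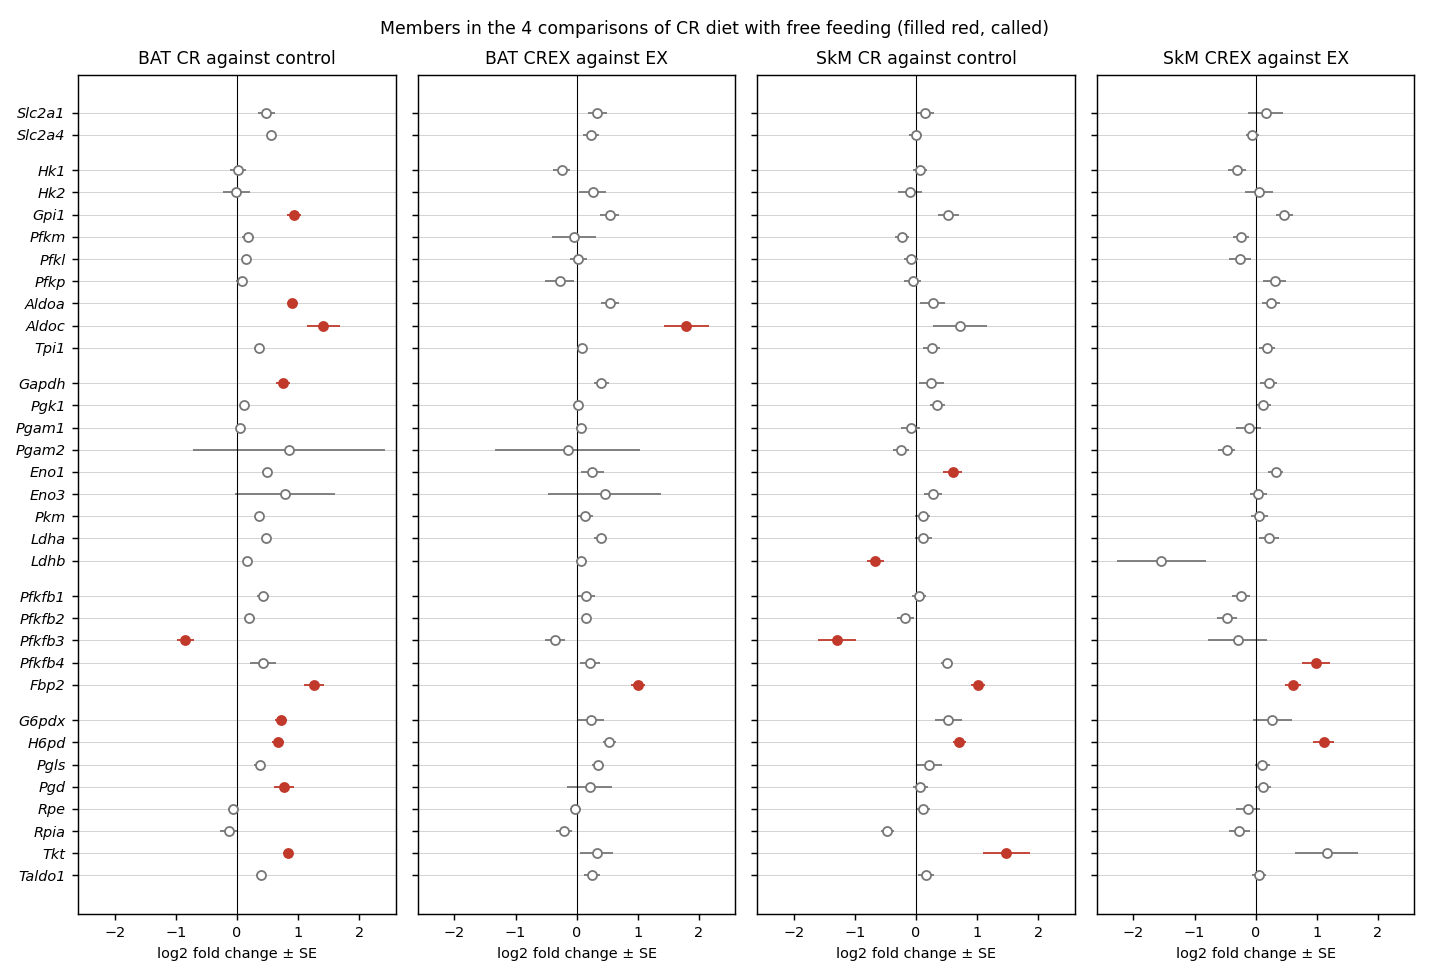
Log2 fold change with SE of each member in the 4 comparisons of a restricted with a free diet, from edgeR, with called members filled in red. BAT under CR alone has 10 filled points, the other panels have 2, 6 and 3, and Fbp2 is filled in all 4.

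No effect of training on these genes passed the test. No member was called between EX and control or between CREX and CR in either tissue, and over all genes 0, 0.00763%, 0.0775% and 0 were called in BAT EX, BAT CREX against CR, SkM EX and SkM CREX against CR. At an unadjusted p under 0.05 there were 4, 4, 4 and 2 members in edgeR. In BAT the smallest p of these was that of Pfkfb3 between EX and control, with 312, 451, 349.9 and 276 CPM in the EX libraries, all below the lowest control of 496 CPM (log2 fold change -0.71, SE 0.17, edgeR adjusted p = 0.4), a comparison with the same 3 control libraries as that of CR. DESeq2 called this gene there, and no other member in any of these 4 comparisons. In SkM it was that of Pfkp, with 3.80, 3.62, 3.80 and 3.87 CPM in EX and 5.61, 5.21, 4.84 and 4.66 CPM in control libraries, which did not overlap (log2 fold change -0.43, SE 0.12, edgeR adjusted p = 0.271). Fbp2 had 27.01, 26.4, 31.05 and 33.2 CPM in EX against 24.7, 24.5, 25.01 and 19.8 CPM in control libraries (log2 fold change 0.32, SE 0.10, edgeR adjusted p = 0.442). No interaction of CR and EX passed for any member (smallest edgeR adjusted p = 0.824 in BAT and 0.941 in SkM, with 1 member in BAT and 0 in SkM at an unadjusted p under 0.05, and DESeq2 also gave 0).

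The proportions of isoforms were compared as shares of the counts of each enzyme. Ldhb made 29.7 ± 0.880% of Ldha and Ldhb counts in BAT of CR mice and 34.2 ± 1.197% in controls, and 10.8 ± 1.85% and 17.1 ± 1.18% in SkM (SD, n = 3 or 4). Both differences were complete separations, lower under CR (exact two-sided permutation p = 0.0286 each, the smallest this design allows, and 0.171 adjusted over 24 comparisons). In BAT the shift came with a rise of Ldha, and in SkM with a fall of Ldhb. No isoform share of hexokinase, phosphofructokinase, aldolase, mutase or enolase passed after adjustment either (smallest exact permutation adjusted p = 0.171). Complete separations at an exact permutation p of 0.0286 were also seen for Eno3 and Aldoc. The Eno3 share in SkM was 97.48% under CR and 97.96% in control. The Aldoc share in BAT was 0.0451% in CREX and 0.0186% in EX. With this smallest p the adjustment could hardly be passed, so the shares are not shown to be alike. Hk2 made 82.2% to 93.1% of hexokinase 1 and 2 counts in BAT and 94.3% to 98.5% in SkM over all groups.

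Neighbouring genes were taken from 5 lists of other hexose, gluconeogenic, glycogen, NADPH and regulatory genes. In BAT under CR, 3 of 21 genes of gluconeogenesis and pyruvate entry were called higher and 1 lower, 3 of 12 NADPH and pentose neighbours higher, 2 of 20 glycogen genes higher and 2 lower, 2 of 19 tested hexose genes higher and 1 lower, and 1 of 18 regulators in each direction. Over all tested genes 10.7% were called there, 3.87% higher and 6.86% lower. Fbp1, the liver form of fructose bisphosphatase, lies on the same strand as Fbp2 with start sites 29882 bases apart. It had 0.306, 0.282 and 0.330 CPM in control, 3.86, 2.65, 5.77 and 4.56 CPM in CR, 0.508, 0.686, 0.162 and 0.0875 CPM in EX and 4.83, 2.66, 3.18 and 4.11 CPM in CREX libraries (log2 fold change 3.76, SE 0.32, edgeR adjusted p = 9.52e-05 for CR against control). Every restricted library lay above every library on free diet, and the 5 hepatocyte markers summed to between 0.215 and 61.9 CPM over the BAT libraries, whose part in this result was not tested. Slc16a1, the lactate transporter MCT1, fell (160.5, 199.9 and 173 CPM in control and 64.9, 48.3, 96.7 and 71.8 CPM in CR libraries, log2 fold change -1.34, SE 0.22, edgeR adjusted p = 0.00824). Pyruvate carboxylase (Pcx) rose between CREX and EX with 798 ± 32.4 against 516 ± 43.3 CPM (SD, n = 4; log2 fold change 0.62, SE 0.073, edgeR adjusted p = 0.0021).

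In SkM under CR, 5 of 18 regulators of glucose use were called higher and 1 lower, 3 of 19 tested glycogen genes higher and 1 lower, 3 of 19 tested hexose genes higher and 2 lower, 1 of 20 tested gluconeogenic genes in each direction, and 0 of 12 NADPH neighbours. Over all tested genes 9.60% were called there, 4.27% higher and 5.32% lower. Foxo1, a transcription factor restrained by insulin, had 12.97, 13.6, 14.7 and 16.3 CPM in control and 80.7, 77.2 and 65.3 CPM in CR libraries (log2 fold change 2.37, SE 0.12, edgeR adjusted p = 9.52e-06). Ppp1r3c, which targets a phosphatase to glycogen, had 130.1, 124, 102 and 163 CPM in control and 902, 555 and 499.5 CPM in CR libraries (log2 fold change 2.34, SE 0.23, edgeR adjusted p = 3.20e-04). Slc2a3, the high-affinity transporter GLUT3, had 5.61, 5.12, 5.47 and 5.57 CPM in control and 13.1, 11.8 and 12.7 CPM in CR libraries (log2 fold change 1.21, SE 0.11, edgeR adjusted p = 1.91e-04), whereas the member Slc2a4 had a log2 fold change of -0.0047 and did not pass. All 3 were also called higher in CREX than in EX libraries, by 2.51, 2.85 and 2.47 on the log2 scale (edgeR adjusted p = 0.00421, 0.00212 and 0.00857). Pck1 was called higher under CR, at 6.58, 9.48 and 17.3 CPM in the CR libraries. In CR 1, CR 2 and CR 3 the hepatocyte markers summed to 35.4, 198 and 181 CPM and the adipocyte markers to 255, 138 and 266 CPM. Their part in the Pck1 result was not tested.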

How the data were processed

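RNA was extracted from BAT and gastrocnemius with Trizol and sequenced as paired-end reads on a BGIseq500. Trimmed reads were aligned by the authors with STAR 2.7.10a to mm10. The table they deposited gives, per gene symbol and library, expected counts from RSEM that were not normalized. The submitters' processing notes name RSEM 1.2.28 and the methods another version, and the annotation used for counting is not given in the sources used here. Whether same-group samples shared cages or processing days is not stated, so p-values measure the spread between these mice.

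Expected counts were rounded and analysed in R 4.3.3 with edgeR 4.0.16 (TMM, filterByExpr, robust quasi-likelihood test), each comparison on its own groups, and adjusted by Benjamini-Hochberg over all genes tested. Calls needed both an adjusted p under 0.05 and a fold over 1.5, the thresholds of the methods, which used DESeq2. SE is the log2 fold change divided by the square root of F. The interaction was fitted over all groups of a tissue, and tissue differences over both tissues. Levels per kilobase and gene positions used the exons of GENCODE M21 (GRCm38, the build of the files). The muscle share of a BAT library is the median, over 15 muscle genes, of its CPM as a percentage of the SkM control mean. Marker scores are means of log2(CPM + 1). Promoters came from RefSeq (GRCm38.p6). No protein or genome sequence was used. On simulated counts for 13140 genes of the BAT CR comparison, 151 of 196 genes changed 2-fold were called and 10 unchanged genes were. Of the symbols, 27 had been turned into dates and 2 were duplicated. Python 3.11.15, pandas 2.3.3 and matplotlib 3.10.9 drew the figures.

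The members and lists were chosen with earlier results of these data known. By rule, members called in a comparison, and muscle isoforms in BAT, were given by library, members past the adjusted p alone by fold and p, the rest by counts, and called genes of neighbouring lists could be named. Outside this rule, chosen after their values were seen, are the members named without passing a test and the values by library of uncalled members. DESeq2 1.42.0, RLE size factors, other filters, all groups in 1 fit, the replicate block, no fold minimum, marker scores as covariates and each library left out were tried. Adding the adipocyte score in SkM, and leaving out the BAT libraries with most muscle RNA or SkM CREX 2 and CREX 3, was chosen after seeing the data. No pair of libraries of a group was a duplicate (smallest chi-square per degree of freedom 5.80). 1 gene of a neighbouring list is not reported here by name.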

Additional observations from a re-analysis of the deposited data

Results flagged for a closer look

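In 13 of 90 groups of 4 libraries examined for 18 members, 1 library stood apart from the other 3 by Dixon's criterion, which by chance marks about 1 group in 20. The members were measured in the same libraries and are not independent, so the 13 cannot be set against that rate. SkM control 4 was the low value for 4 members, with Fbp2 at 19.8 CPM (others 24.5 to 25.01), Aldoa at 13208 CPM (16338 to 16905), Gapdh at 10536 CPM (13135 to 13277) and Eno3 at 2957 CPM (3754 to 3897). BAT CR 2 was the high value for Gpi1 at 1545 CPM (1148 to 1207) and for Ldhb at 584 CPM (517 to 527), and SkM EX 4 was high for Gpi1 at 1234 CPM (953 to 994). Aldoc was high in BAT CREX 1 at 3.51 CPM (1.51 to 1.66) and low in BAT EX 2 at 0.274 CPM (0.688 to 0.700). Ldhb was high in BAT EX 4 at 575 CPM (430 to 453). Tkt in SkM was low in control 2 at 6.42 CPM (7.98 to 8.097) and high in EX 1 at 12.6 CPM (6.43 to 7.005), and Pfkfb1 in SkM was high in control 1 at 53.7 CPM (42.8 to 43.9).

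For 4 members the difference in CR effect between BAT and SkM passed its own test. BAT minus SkM on the log2 scale was 0.85 for Ldhb, 0.70 for Pgd and 0.57 for Slc2a4 in sedentary mice, and 0.63 for Pfkfb2 in trained mice. Over all genes, 3.93% passed as more positive in BAT in sedentary and 3.03% in trained mice. Ldhb held in each of 18 alternatives. Pgd, Slc2a4 and Pfkfb2 lost the adjusted p in 10 of 18, 6 of 18 and 15 of 19 alternatives.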

How the results depend on the processing

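Of the results on single called members and tissue differences (25), 307 of 382 values under an alternative kept direction and call, 75 kept the direction and lost the call, and 0 reversed. Of the counts of called members, that of BAT CR against control (10) was 19 with no fold minimum and 10 to 11 with each mouse left out. For BAT CREX against EX (2) it was 1 with at least 10 counts in every library, 4 with no fold minimum, 5 with the muscle score as a covariate, 1 without the libraries of highest muscle share, and 2 to 4 with each mouse left out, 4 being without EX 1. For BAT EX against control (0) it was 1 with DESeq2 (Pfkfb3) and 1 without the libraries of highest muscle share (Tkt). For SkM CR against control (6) it was 3 in 1 fit of all groups, 2 with the adipocyte score as a covariate, and 3 to 5 with each mouse left out, with 3 without control 3 or control 4. For SkM CREX against EX (3) it was 0 with the slow fibre score as a covariate and 1 to 6 with each mouse left out, with 1 without EX 1, EX 2 or CREX 2, and 6 without CREX 1. For SkM CREX against CR (0) it was 0 to 2, the latter without CREX 1. Members whose CR effect differed between tissues numbered 5 with DESeq2 in sedentary mice (3), with 1 to 6 when each mouse was left out (1 without BAT control 1, BAT control 2 or SkM control 2, and 6 without SkM CR 1). In trained mice (1) they numbered 0 with no filter on low counts and 0 to 3 with each mouse left out, 3 being without SkM CREX 1, 1 without SkM EX 4 and 0 without any other. The cause of these changes was not tested.

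Pairing of same-numbered libraries was examined only within a tissue, where libraries of different groups come from different mice. In no such comparison did every pair's deviations correlate above 0.1 (mean correlation -0.259 to 0.171). Whether same-numbered BAT and SkM libraries came from the same mouse was not checked. Fits over both tissues took these libraries as independent, except with the replicate block given next. With the number as a replicate block, 1 member was called in BAT CREX against CR (Eno3) and 3 in SkM CR against control, and the tissue difference passed for 1 in sedentary and 0 in trained mice. The block left the other counts within 1.5 times. Depth limited Aldoc, at 0.166 to 0.672 CPM in SkM, where 3 counts stand at 0.128 to 0.130 CPM.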
